A study of Mus musculus with 4 samples.

Results

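Inhibitory checkpoint genes were followed in intestinal CD4+ T cells that differed in TGFβ receptor signaling. The group held 7 genes chosen by name, *Lag3*, *Ctla4*, *Pdcd1*, *Tigit*, *Havcr2*, *Btla* and *Cd200*. All 7 were found among the 13265 genes of the single-cell table, and 5 of them had at least 200 UMIs over all 5080 cells. *Havcr2*, with 134 UMIs, and *Btla*, with 161, stayed under that minimum, and their values rest on few molecules.

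The cells were YFP+CD4+ T cells purified by flow cytometry from small intestines of C57BL/6 mice of both sexes, 7 to 8 months old, and each of the 4 samples pooled several mice. All mice carried *Il17a-cre* and a *Rosa26*-stop-*yfp* reporter, so YFP marks every cell that has expressed *Il17a* at any time, whatever it became afterwards. TGFβR-KO mice (1 sample) also carried floxed alleles of *Tgfbr2*. TGFβR-CA mice (1 sample) carried a constitutively active *Tgfbr1* behind a floxed stop cassette. TGFβR-WT mice (2 samples) had neither floxed receptor allele.

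Inhibitory checkpoint receptors are surface proteins that dampen T cell activation. PD-1, encoded by *Pdcd1*, and BTLA recruit phosphatases such as SHP-2 to the activated T cell receptor, CTLA-4 competes with CD28 for the ligands CD80 and CD86, TIGIT competes with CD226 for CD155, LAG-3 is a CD4-like receptor for MHC class II, and TIM-3, encoded by *Havcr2*, binds galectin-9 among other ligands. CD200 is a ligand, which acts on the inhibitory receptor CD200R1. Most of these genes are switched on when a T cell is activated. PD-1, BTLA and CD200 are also typical of follicular helper T (TFH) cells, and CTLA-4 is abundant in regulatory T cells.

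The table held 2975 cells labelled TGFβR-KO, 1007 labelled TGFβR-WT and 1098 labelled TGFβR-CA. The TGFβR-WT cells carry 2 name suffixes, which are not tied to the 2 samples. They are shown as a larger set (709 cells) and a smaller set (298 cells), and TGFβR-WT without a set named means all 1007 cells. A level is the UMIs of a gene per 10000 UMIs of a group of cells, after the authors' correction to a common depth, which left a median of 3440 to 3984.5 UMIs per cell in the 4 sets. A cell counts as having a gene when its value is above 0. With 1 sample each for TGFβR-KO and TGFβR-CA no test was possible, and a gene was called lower or higher only when its level differed at least 1.5-fold from both TGFβR-WT sets. Confidence intervals are exact Clopper-Pearson 95% intervals and cover counting error only. The limit given beside a count of 0 is not such an interval but 3 counts of the total, and it limits cells with a UMI, not cells that express the gene. The sets shared few cell barcodes, 14 of them common to TGFβR-KO and larger-set TGFβR-WT cells and at most 1 common to any other pair. *Tgfbr1* stood at 0.219 in TGFβR-KO cells, 0.367 and 2.79 in the larger and smaller TGFβR-WT sets and 0.792 in cells labelled TGFβR-CA. The last value lies between the TGFβR-WT sets, and an RNA level does not check whether the receptor is active. *Tgfbr2* stood at 1.48 in TGFβR-KO cells, 1.72 and 1.76 in the TGFβR-WT sets and 1.78 in TGFβR-CA cells, although 3′ tags do not check a deletion of other exons. Conditions are therefore named as the cells were labelled. TGFβR-KO and TGFβR-CA cells were sequenced in different batches, each with TGFβR-WT cells, but the 2 TGFβR-WT sets are not tied to these batches here, so no within-batch value could be given. The CD4 T cell markers *Cd3e*, *Cd3d*, *Cd4* and *Trac* were present in every set, with a summed level of 39.3 to 49.3.

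The promoters of 3 genes are shown because *Pdcd1* and *Tigit* were the members whose levels stood lower in TGFβR-KO and higher in TGFβR-CA cells than in both TGFβR-WT sets, whereas *Ctla4* was not called in either. Each is the RefSeq window of 250 bases before and 50 bases from the gene start on GRCm38.p6, read 5′ to 3′ on the gene's strand, with the core SMAD-binding motif CAGAC (or GTCTG, its other strand) in capitals. The windows are chr1:94052504-94052803 on the minus strand for *Pdcd1*, chr16:43664135-43664434 on the minus strand for *Tigit* and chr1:60908775-60909074 on the plus strand for *Ctla4*.
Pdcd1 promoter: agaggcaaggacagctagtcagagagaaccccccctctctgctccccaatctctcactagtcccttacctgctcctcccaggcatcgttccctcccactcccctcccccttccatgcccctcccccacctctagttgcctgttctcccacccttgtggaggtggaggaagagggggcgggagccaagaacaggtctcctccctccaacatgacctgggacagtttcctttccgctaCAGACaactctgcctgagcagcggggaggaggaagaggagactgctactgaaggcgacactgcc
Tigit promoter: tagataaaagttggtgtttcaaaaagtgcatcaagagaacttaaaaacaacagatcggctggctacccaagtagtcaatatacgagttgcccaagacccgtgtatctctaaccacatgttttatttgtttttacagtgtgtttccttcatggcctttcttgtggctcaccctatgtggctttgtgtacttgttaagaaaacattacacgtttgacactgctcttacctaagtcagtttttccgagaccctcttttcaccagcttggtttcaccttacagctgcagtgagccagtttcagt
Ctla4 promoter: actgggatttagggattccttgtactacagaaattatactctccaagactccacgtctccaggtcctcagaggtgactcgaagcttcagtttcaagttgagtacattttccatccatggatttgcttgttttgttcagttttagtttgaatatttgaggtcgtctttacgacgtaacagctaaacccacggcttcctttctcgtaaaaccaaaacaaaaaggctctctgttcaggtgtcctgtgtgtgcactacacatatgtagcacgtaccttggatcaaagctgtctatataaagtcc

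The motif occurred once in the *Pdcd1* window, beginning at base 237, and in neither the *Tigit* nor the *Ctla4* window. Among the 6 members with a window it was also found once each in *Havcr2* and *Cd200* and not in *Btla*. It is a common string, present in 16292 of 32851 promoters (49.6%). *Lag3* had no window in the table used here.

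Across all cells, 3 of the 7 genes were lower in TGFβR-KO cells than in both TGFβR-WT sets, *Lag3*, *Pdcd1* and *Tigit*, and none was higher. Of the 7490 genes with at least 200 UMIs, 5.43% were called lower and 2.94% higher in TGFβR-KO cells by the same rule. All 3 called members are among the 5 that reached that minimum. The members were chosen with earlier results of these data known, so their counts, here and within clusters, cannot be read as an excess over such shares. In cells labelled TGFβR-CA, *Tigit* was the only member called higher and none was called lower, against 1.23% and 2.72% of the 7490 genes. The median log2 ratio over these genes was -0.16 for TGFβR-KO against either TGFβR-WT set and -0.10 for TGFβR-CA. Both TGFβR-WT sets were also unlike each other, with 11.8% of genes at least 1.5-fold lower and 10.2% at least 1.5-fold higher in the smaller set. These shares rest on a single ratio, whereas a call had to pass against both TGFβR-WT sets, so their sizes cannot be compared.

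**Figure D1:**
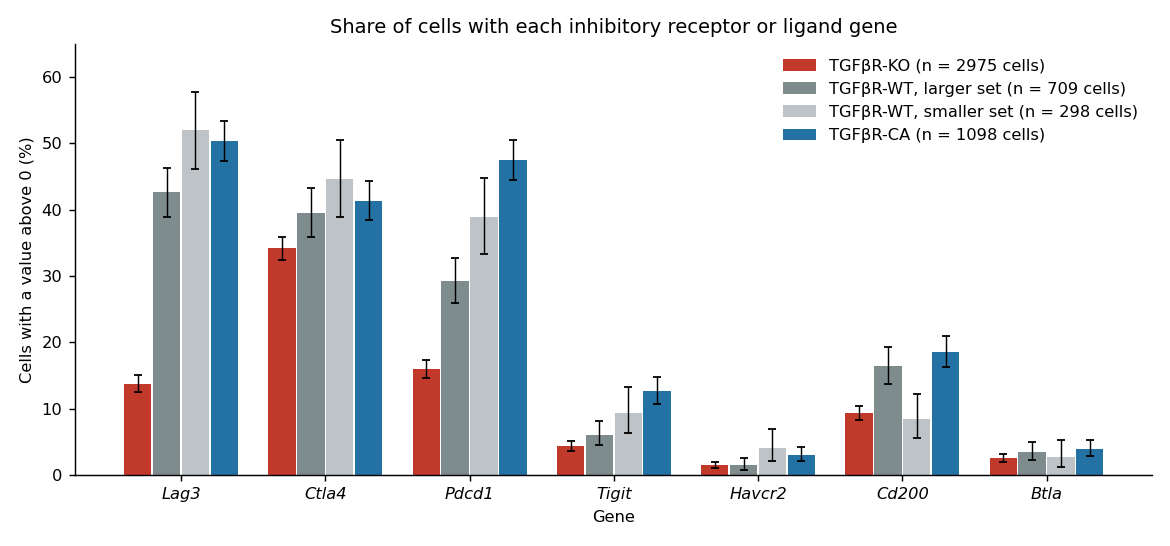
Share of cells (%) with a value above 0 for each of the 7 genes in the 4 sets of cells (TGFβR-KO, both TGFβR-WT sets, TGFβR-CA); bars start at 0 and error bars are exact 95% intervals, which cover counting error only. *Lag3* and *Pdcd1* were found in 13.7% and 15.9% of TGFβR-KO cells, below the intervals of the other 3 sets, while the *Ctla4* shares of all 4 sets lie between 34.2% and 44.6%.

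*Lag3* (chr6:124904361-124911705, minus strand, mm10) showed the widest gap. Its level was 0.809 in TGFβR-KO cells, 3.59 in the larger and 5.42 in the smaller TGFβR-WT set, and 4.07 in TGFβR-CA cells. The TGFβR-WT levels were thus 4.44 and 6.69 times that of TGFβR-KO cells, and the TGFβR-CA level fell between the TGFβR-WT sets. The gene was found in 13.7% of TGFβR-KO cells (12.5 to 15.0%), against 42.6% (38.9 to 46.3%) and 52.0% (46.2 to 57.8%) of the TGFβR-WT sets and 50.4% (47.4 to 53.4%) of TGFβR-CA cells. The positive cells also held fewer molecules, with 2.28 UMIs each in TGFβR-KO and 2.98, 4.24 and 3.23 in the other sets. When every cell was thinned to 2955 UMIs, the shares were 11.7%, 40.5%, 46.3% and 45.3%. A cell with 50 *Lag3* UMIs raised the smaller TGFβR-WT set, whose level was 5.02 without it.

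Among the deposited clusters, *Lag3* was highest in the Activated and next highest in the GC-TFH cluster in each of the 3 conditions. In the Activated cluster its level was 2.84 in TGFβR-KO cells, 10.9 and 15.3 in the TGFβR-WT sets and 10.7 in TGFβR-CA cells, and 34.0%, 73.9%, 72.4% and 78.5% of the cells had it. In the TR-TFH cluster the levels were 0.700, 2.91, 3.57 and 2.67, and in the GC-TFH cluster 2.01, 3.48, 8.82 and 4.50, in the same order. The TGFβR-KO level was the lowest of the 4 sets in each of these clusters. The Pre-tumorigenic cluster was mixed, with 0.448 in TGFβR-KO cells beside 0.439 in the larger TGFβR-WT set (4 UMIs in 27 cells), 2.48 in the smaller set and 2.88 in TGFβR-CA cells. The Tumorigenic and CTL clusters, which were almost entirely TGFβR-KO cells, had *Lag3* in 4.99% (2.98 to 7.77%) of 361 and 5.92% (3.6 to 9.09%) of 321 cells, shares whose intervals overlap each other and that of the Migratory cluster (5.78%, 4.29 to 7.59%).

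**Figure D2:**
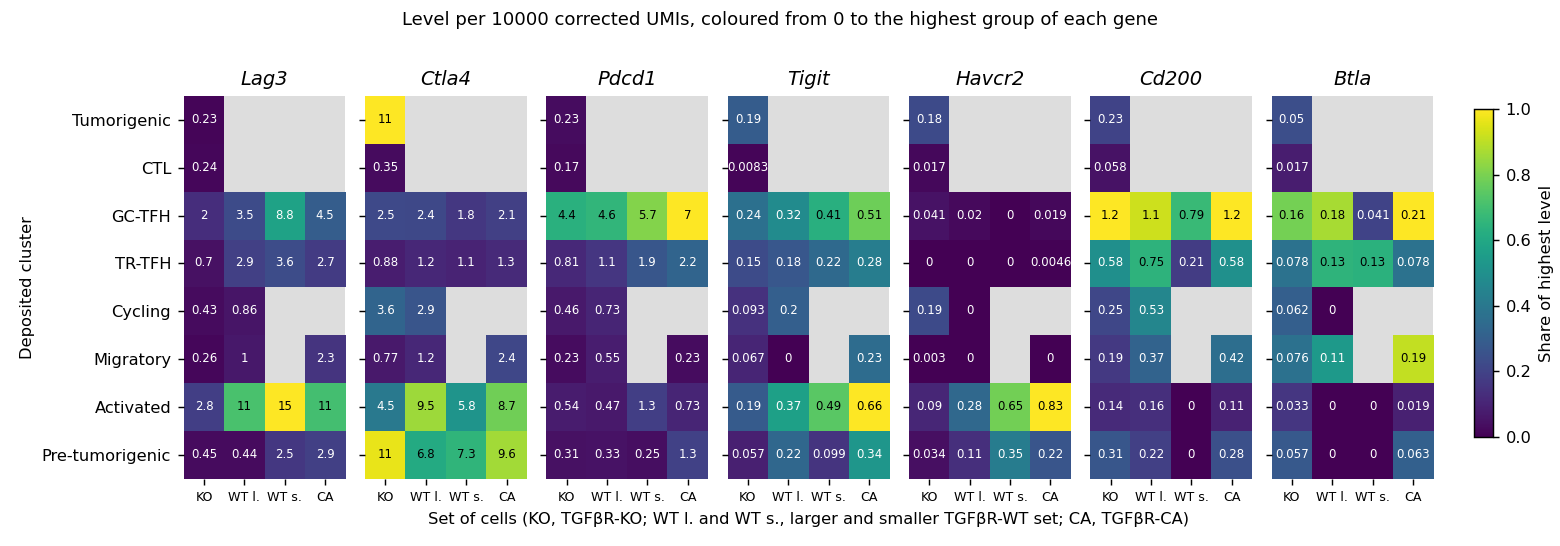
Level per 10000 UMIs of each gene by deposited cluster (rows) and set of cells (columns), coloured from 0 to the highest group of that gene; grey marks groups of fewer than 20 cells. *Lag3* and *Havcr2* are brightest in the Activated cluster outside TGFβR-KO, *Ctla4* in the Tumorigenic and Pre-tumorigenic clusters of TGFβR-KO, and *Pdcd1* and *Cd200* in the GC-TFH cluster. *Btla* is also brightest there, except in the smaller TGFβR-WT set.

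*Ctla4* (chr1:60887000-60915832, plus strand) did not follow *Lag3*. The RefSeq gene start used for its promoter window lies inside this GENCODE gene. Its level was 3.43 in TGFβR-KO cells, 2.85 and 2.95 in the TGFβR-WT sets and 3.14 in TGFβR-CA cells, so that all 4 sets lay within 1.21-fold of each other. Fewer TGFβR-KO cells had it (34.2%, 32.4 to 35.9%) than cells of the larger TGFβR-WT set (39.5%, 35.9 to 43.2%), the smaller set (44.6%, 38.9 to 50.5%) or TGFβR-CA (41.3%, 38.4 to 44.3%), although the intervals of TGFβR-KO and the larger set touch. Those that did held more of it, 3.88 UMIs per positive cell against 2.55, 2.69 and 3.03. Thinned to 2955 UMIs, the shares were 30.2%, 35.5%, 37.9% and 37.2%.

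The clusters behind these totals differed. The Tumorigenic cluster held 39.9% of all *Ctla4* UMIs of TGFβR-KO cells, although it supplied 12.3% of all their UMIs. Its *Ctla4* level was 11.1, with the gene in 258 of 361 cells (71.5%, 66.5 to 76.1%). The TGFβR-KO Pre-tumorigenic cluster was close behind, at 10.8 and 68.3% (61.8 to 74.2%). In the Pre-tumorigenic cluster of the other sets the level was 6.81 and 7.28 in TGFβR-WT and 9.56 in TGFβR-CA cells. In the Activated cluster the order turned, with 4.50 in TGFβR-KO cells, 9.49 and 5.78 in the TGFβR-WT sets and 8.73 in TGFβR-CA cells. The CTL cluster had *Ctla4* in 8.41% (5.62 to 12%) of its cells.

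**Figure D3:**
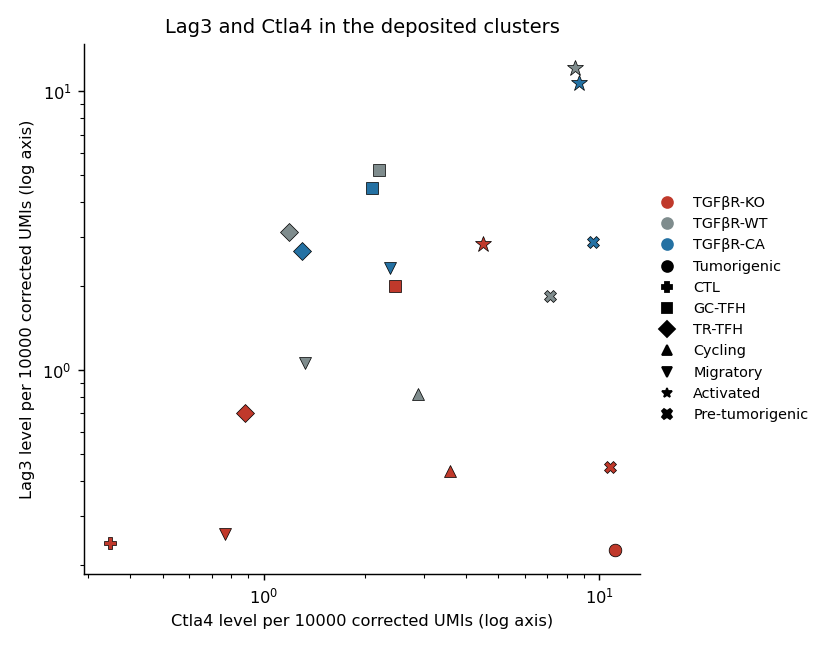
*Lag3* against *Ctla4* level per 10000 UMIs, both on log axes, with a point for each deposited cluster of at least 20 cells in TGFβR-KO, TGFβR-WT (both sets together) and TGFβR-CA. The TGFβR-KO Tumorigenic cluster sits at the lower right, with 11.1 for *Ctla4* and 0.227 for *Lag3*, whereas the TGFβR-WT and TGFβR-CA Activated clusters sit at the upper right, with *Lag3* at 12.1 and 10.7.

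*Foxp3*, which defines regulatory T cells, was found in 31 TGFβR-KO cells, 21 TGFβR-WT cells and 0 of 1098 TGFβR-CA cells, which allows a share of up to 0.273%. Of the 31 TGFβR-KO cells, 27 had *Ctla4*, at a level of 12.8, and the other 2944 cells stood at 3.33. In TGFβR-WT cells the *Ctla4* level was 4.86 with and 2.84 without *Foxp3*. The summed level of *Foxp3*, *Ikzf2* and *Il2ra* was 1.83 in TGFβR-KO cells and 3.26 to 4.30 in the other sets, with all 3 detected except *Foxp3* in TGFβR-CA cells. Most of each sum was *Ikzf2*, at 1.29 in TGFβR-KO cells, 3.65 and 2.88 in the TGFβR-WT sets and 3.73 in TGFβR-CA cells. *Il2ra* stood at 0.476, 0.531, 0.239 and 0.196 in the same order, so these markers did not move together. Only 2 of the 361 Tumorigenic TGFβR-KO cells had *Foxp3*, and 0 of the 230 Pre-tumorigenic ones. The part of regulatory T cells in the *Ctla4* differences was not tested.

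*Pdcd1* (chr1:94038305-94052553, minus strand) stood in the order TGFβR-KO, TGFβR-WT, TGFβR-CA over all cells. Its level was 0.815 in TGFβR-KO cells, 1.58 and 2.17 in the TGFβR-WT sets and 3.04 in cells labelled TGFβR-CA. The corresponding shares of cells were 15.9% (14.6 to 17.3%), 29.2% (25.9 to 32.7%), 38.9% (33.4 to 44.7%) and 47.5% (44.6 to 50.5%), where the smaller TGFβR-WT and the TGFβR-CA intervals touch. The TGFβR-WT levels were 1.94 and 2.66 times that of TGFβR-KO, and the TGFβR-CA level was 1.92 and 1.40 times those of the TGFβR-WT sets, the second below the limit for a call. Thinning left shares of 13.3%, 24.5%, 33.2% and 40.7%.

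The GC-TFH cluster held 58.1%, 55.8% and 55.9% of the *Pdcd1* UMIs of TGFβR-KO, TGFβR-WT and TGFβR-CA cells. It made up 10.7%, 19.8% and 24.0% of these cells. Within it, the *Pdcd1* level was 4.42 in TGFβR-KO cells, 4.57 and 5.67 in the TGFβR-WT sets and 6.95 in TGFβR-CA cells. The larger and smaller TGFβR-WT sets were thus 1.04 and 1.28 times TGFβR-KO inside this cluster, less than over all cells. The TR-TFH levels were 0.809, 1.09, 1.87 and 2.24. The order over all cells did not hold in every cluster. Activated levels were 0.539, 0.466, 1.30 and 0.733, and Pre-tumorigenic levels 0.310, 0.329, 0.248 and 1.35, in the same order of sets. The 4 TFH markers *Cxcr5*, *Bcl6*, *Il21* and *Sh2d1a* summed to 1.16 in TGFβR-KO cells and to 2.51 to 3.19 in the other sets, with *Sh2d1a* at 0 in the smaller TGFβR-WT set. Their part in the *Pdcd1* difference was not tested.

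*Tigit* (chr16:43648867-43664146, minus strand) was sparse and stood in the same order. Its level was 0.122 in TGFβR-KO cells, 0.211 and 0.247 in the TGFβR-WT sets and 0.381 in TGFβR-CA cells, from 140, 53, 30 and 167 UMIs. The TGFβR-WT sets were 1.73 and 2.03 times TGFβR-KO, and TGFβR-CA was 1.80 and 1.54 times the TGFβR-WT sets. It was found in 4.34% (3.63 to 5.13%) of TGFβR-KO cells, 6.06% (4.42 to 8.08%) and 9.40% (6.33 to 13.3%) of the TGFβR-WT sets and 12.7% (10.7 to 14.8%) of TGFβR-CA cells. The intervals of neighbouring sets in this order overlapped, and by these shares *Tigit* was called in neither condition. After thinning the shares were 3.26%, 5.36%, 5.70% and 9.56%. The lowest share of any cluster of 20 or more cells with the gene was 1 of 321 CTL cells of TGFβR-KO (0.312%, 0.00789 to 1.72%). In the Migratory cluster it was found in 0 of 89 TGFβR-WT cells, which allows up to 3.37%. No cell type known to lack these genes remained in the table, so these low shares do not measure a background. The highest shares were 6 of 29 Activated cells in the smaller TGFβR-WT set (20.7%), 26 of 130 Activated TGFβR-CA cells and 49 of 263 GC-TFH TGFβR-CA cells (18.6%).

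*Havcr2* (chr11:46454935-46481255, plus strand) was rare, and outside TGFβR-KO most of it lay in the Activated cluster. Its level was 0.0470 in TGFβR-KO cells, 0.0439 and 0.124 in the TGFβR-WT sets and 0.123 in TGFβR-CA cells, so the gap between the TGFβR-WT sets was as wide as that between the conditions. The Activated cluster held 65.4% of the *Havcr2* UMIs of TGFβR-WT and 81.5% of those of TGFβR-CA cells. In that cluster, 10 of 318 TGFβR-KO cells had it (3.14%, 1.52 to 5.71%), 8 of 88 (9.09%, 4.01 to 17.1%) and 5 of 29 (17.2%, 5.85 to 35.8%) in the TGFβR-WT sets and 25 of 130 TGFβR-CA cells (19.2%, 12.8 to 27.1%). The share in TGFβR-KO lay below the TGFβR-CA interval. Of the TGFβR-KO UMIs of this gene, 48.1% came from the Tumorigenic cluster, in which 20 of 361 cells (5.54%, 3.42 to 8.43%) had the gene. In the TR-TFH cluster it was found in 0 of 519 TGFβR-KO cells, which allows a share of up to 0.578%, in 0 of 460 TGFβR-WT cells, up to 0.652%, and in 1 of 556 TGFβR-CA cells.

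*Cd200* (chr16:45382135-45409053, minus strand), the ligand of the group, divided the TGFβR-WT sets. Its level was 0.355 in TGFβR-KO cells, 0.658 in the larger and 0.280 in the smaller TGFβR-WT set and 0.632 in TGFβR-CA cells, so that TGFβR-KO cells lay between the TGFβR-WT sets. It was found in 9.28% (8.26 to 10.4%), 16.4% (13.7 to 19.3%), 8.39% (5.50 to 12.1%) and 18.5% (16.2 to 20.9%) of cells. Like *Pdcd1*, it was highest in the GC-TFH cluster in each condition, with 1.15 for TGFβR-KO cells, 1.07 and 0.786 for the TGFβR-WT sets and 1.16 for TGFβR-CA cells. These GC-TFH levels were closer to each other than those over all cells.

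*Btla* (chr16:45224315-45257670, plus strand) lies 124464 bases from *Cd200*. Its level was 0.0697 in TGFβR-KO cells, 0.108 and 0.0659 in the TGFβR-WT sets and 0.105 in TGFβR-CA cells, and all 4 intervals of its share of cells overlapped, at 2.52%, 3.39%, 2.68% and 3.92%. Its highest levels in TGFβR-KO and TGFβR-CA cells were also in the GC-TFH cluster, at 0.162 and 0.205. In TGFβR-WT cells the GC-TFH level of 0.134 (10 UMIs) equalled nearly that of the TR-TFH cluster, 0.133 (22 UMIs). The smaller TGFβR-WT set had 0.0414 in GC-TFH, from 1 UMI, and 0.131 in TR-TFH. In the Activated cluster it was found in 4 of 318 TGFβR-KO cells, 0 of 117 TGFβR-WT cells, which allows up to 2.56%, and 1 of 130 TGFβR-CA cells.

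Within clusters, the comparison could be made in the 4 clusters with at least 20 cells in every set, GC-TFH, TR-TFH, Activated and Pre-tumorigenic, which gave 28 pairs of a member and a cluster. In TGFβR-KO cells 3 pairs were lower than both TGFβR-WT sets and 0 were higher, against 3.83% and 3.26% of the pairs over the 7490 genes. All 3 were *Lag3*, in the GC-TFH, TR-TFH and Activated clusters, where the larger TGFβR-WT set stood 1.74, 4.16 and 3.84 times and the smaller 4.40, 5.10 and 5.38 times above TGFβR-KO. The GC-TFH call was lost at a ratio of 2 and by shares of cells, which were 35.2% in TGFβR-KO cells and 52.5% in the larger TGFβR-WT set. In TGFβR-CA cells 2 pairs were higher and 0 lower, against 3.30% and 2.29%. Both lay in the Pre-tumorigenic cluster. *Pdcd1* was at 1.35 there, beside 0.329 and 0.248 in the TGFβR-WT sets, and was found in 27.7% (18.4 to 38.6%) of 83 cells. *Tigit* was at 0.345, beside 0.220 and 0.0991, from 11 UMIs against 2 in each TGFβR-WT set. *Tigit* no longer passed when Scrublet doublets were left out, when every cell had the same weight or at a ratio of 2.

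Because TGFβR-KO cells were spread differently over the clusters, the levels were also computed with each cluster weighted by its share of TGFβR-WT cells. The *Lag3* level then remained 3.07 and 4.89 times higher in the TGFβR-WT sets than in TGFβR-KO. For *Pdcd1* the ratios came down to 1.14 and 1.63 and for *Tigit* to 1.38 and 1.61, so neither was called any longer. *Ctla4* in TGFβR-KO moved from 1.21 and 1.16 times to 0.853 and 1.03 times the TGFβR-WT sets. In TGFβR-CA the weighted *Tigit* ratios were 1.65 and 1.42, also short of a call.

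**Figure D4:**
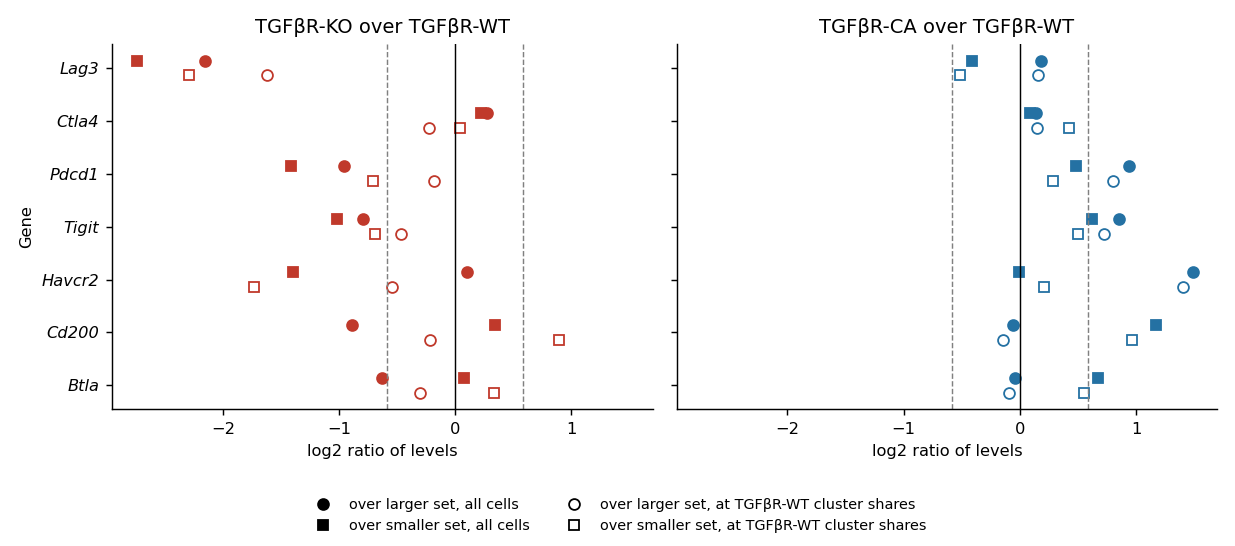
Log2 ratio of the level in TGFβR-KO (left) and TGFβR-CA (right) over the larger (circles) and smaller (squares) TGFβR-WT set, for all cells (filled) and with clusters weighted by their TGFβR-WT shares (open); dashed lines mark a ratio of 1.5 in either direction. In TGFβR-KO only *Lag3* has all 4 points beyond the dashed line, and for *Havcr2*, *Cd200* and *Btla* the points of the 2 TGFβR-WT sets lie apart.

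Fewer TGFβR-KO cells carried several of the 7 genes, a count that does not allow for the share of each single gene. At least 2 were found in 19.97% of TGFβR-KO cells (18.5 to 21.4%), in 43.9% (40.2 to 47.6%) and 51.3% (45.5 to 57.1%) of the TGFβR-WT sets and in 58.7% (55.8 to 61.7%) of TGFβR-CA cells. Thinned to 2955 UMIs these shares were 15.7%, 38.1%, 39.9% and 49.2%. None of the 7 was found in 45.7% of TGFβR-KO, 21.1% of TGFβR-WT and 14.9% of TGFβR-CA cells. By cluster, at least 2 were found in 50.6% of GC-TFH and 34.6% of Activated TGFβR-KO cells, against 72.4% and 68.4% of those of TGFβR-WT and 75.3% and 83.8% of those of TGFβR-CA. In the Pre-tumorigenic cluster the share was 20.4% (15.4 to 26.2%) in TGFβR-KO cells, 22.2% (8.62 to 42.3%) and 30.8% (18.7 to 45.1%) in the TGFβR-WT sets and 55.4% (44.1 to 66.3%) in TGFβR-CA cells, so that the TGFβR-KO interval overlapped those of both TGFβR-WT sets. Cells with none of the 7 made up 25.7% of this cluster in TGFβR-KO and 30.4% in TGFβR-WT. The TGFβR-KO Tumorigenic cluster came to 23.3% (19.0 to 28.0%) and the CTL cluster to 3.12% (1.5 to 5.65%).

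**Figure D5:**
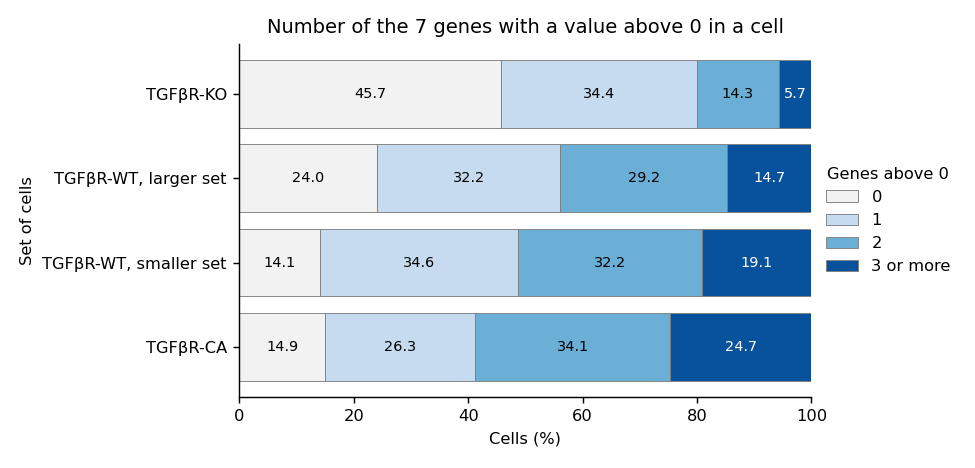
Share of cells (%) in which 0, 1, 2 or at least 3 of the 7 genes had a value above 0, as bars that add up to all cells of a set. At least 3 genes were found in 5.68% of TGFβR-KO, 14.7% and 19.1% of the larger and smaller TGFβR-WT sets and 24.7% of TGFβR-CA cells.

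Over all cells of a condition, *Lag3* accompanied *Ctla4*. It was found in 20.3% (17.8 to 22.9%) of TGFβR-KO cells with *Ctla4* and in 10.3% (9.0 to 11.7%) of those without, and the same shares were 53.8% and 39.6% for TGFβR-WT and 63.0% and 41.5% for TGFβR-CA. *Havcr2* was found in 3.35% (2.33 to 4.65%) of TGFβR-KO cells with *Ctla4* and 0.510% (0.245 to 0.937%) of those without, and in 6.17% (4.14 to 8.79%) and 0.776% (0.253 to 1.80%) in TGFβR-CA. *Pdcd1* was the opposite outside TGFβR-KO. In TGFβR-CA it was found in 39.2% (34.7 to 43.9%) of cells with *Ctla4* and 53.4% (49.5 to 57.3%) of those without, and in the smaller TGFβR-WT set in 27.8% (20.4 to 36.3%) and 47.9% (40.1 to 55.8%). In the larger TGFβR-WT set these shares were 27.9% and 30.1%, and in TGFβR-KO 16.8% and 15.4%, in each case with overlapping intervals. *Cd200* was found in 20.5% of TGFβR-KO cells with *Pdcd1* and 7.15% of those without, and the same shares were 23.7% and 13.3% for the larger TGFβR-WT set and 23.2% and 14.2% for TGFβR-CA. The smaller TGFβR-WT set showed no such gap, with 8.62% (4.21 to 15.3%) and 8.24% (4.69 to 13.2%). The pairings were also computed within clusters. Cells with both *Ctla4* and *Havcr2* were 2.26, 1.99 and 2.05 times as many as the product of the shares over all cells gives in TGFβR-KO, TGFβR-WT and TGFβR-CA, and 1.36, 1.18 and 1.06 times as many as the products within clusters give. For *Pdcd1* and *Cd200* the ratios came down from 2.21, 1.30 and 1.254 to 1.41, 1.06 and 1.08, and for *Lag3* and *Ctla4* from 1.48, 1.18 and 1.251 to 1.34, 1.12 and 1.15. For *Ctla4* and *Pdcd1* they were 1.06, 0.868 and 0.825 over all cells and 1.06, 0.905 and 0.920 within clusters. In the TGFβR-KO Tumorigenic cluster, 15 of 258 cells with *Ctla4* also had *Lag3* (5.81%, 3.29 to 9.41%). In the TGFβR-CA Activated cluster, 93 of 113 cells with *Ctla4* did (82.3%, 74.0 to 88.8%). With or without *Ctla4*, the *Lag3* shares of these groups were 4.99% and 78.5%. The gap between them is thus mostly in *Lag3* itself and not in its pairing, and both cluster and condition differ.

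The genes whose level most resembled each member were ranked over the 23 groups of at least 20 cells made by cluster and set, by the Pearson correlation of log2 levels. The groups share libraries, so these values are descriptions. *Lag3* was closest to *Ctsb*, a lysosomal protease (r = 0.96), *Smco4* (0.90) and *Ptms* (0.90). *Ptms*, which encodes parathymosin, is the neighbour of *Lag3* on the same strand, with 1975 bases between them, and any part of shared reads in this likeness was not tested. The *Ptms* level was 1.10 in TGFβR-KO cells, 3.09 and 3.602 in the TGFβR-WT sets and 2.04 in TGFβR-CA cells. *Cd4*, 16139 bases on the other side of *Lag3*, stood at 3.96, 4.52, 4.76 and 4.47. *Ctla4* was closest to the cytokine gene *Il17a* (0.91), the transcription factor *Nfil3* (0.88) and *Il17f* (0.83). *Pdcd1* was closest to *Ptpn11*, which encodes its partner SHP-2 (0.93), the TFH chemokine receptor *Cxcr5* (0.92) and *Cebpa* (0.91).

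*Tigit* was closest to *Fut8* (r = 0.86), *Smco4* (0.85) and *Sccpdh* (0.84), and *Cd200* to *Sdhaf1* (0.86), *Ccdc28b* (0.85) and *Bcl6*, the TFH transcription factor (0.85). Among the members over the same 23 groups, r was 0.77 for *Lag3* and *Tigit*, 0.66 for *Pdcd1* and *Cd200*, 0.59 for *Pdcd1* and *Tigit* and 0.56 for *Lag3* and *Pdcd1*. For *Ctla4*, r was 0.39 with *Tigit*, 0.23 with *Lag3*, -0.17 with *Pdcd1* and -0.30 with *Cd200*. *Cd200* was also unlike *Lag3* (0.0015) and *Tigit* (0.19), so *Ctla4* was not the only member apart from others.

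The surrounding pathway was followed with 90 further genes, of which 81 were in the table and 66 had at least 200 UMIs. Of these 66, 11 were called lower and 9 higher in TGFβR-KO cells, and 2 lower and 1 higher in TGFβR-CA cells. The shares over the 7490 genes were 5.43% and 2.94% in TGFβR-KO and 2.72% and 1.23% in TGFβR-CA, to which the TGFβR-CA counts are close. These lists too were chosen with earlier results of these data known, so the TGFβR-KO counts cannot be read as an excess. With clusters weighted by their TGFβR-WT shares, *Nt5e*, *Icos* and *Ikzf2* were the only genes of these lists called lower in TGFβR-KO. *Cd27*, *Slamf6*, *Ptpn11*, *Dgkz*, *Maf*, *Tox*, *Tox2* and *Tcf7* were then not called, nor were *Cd48*, *Id2* and *Nr4a1* among those higher in TGFβR-KO or *Lgals3* and *Id2* in TGFβR-CA. None of the 7 measured ligands and counter-receptors was called in TGFβR-KO, and *Lgals3*, which encodes galectin-3, was called lower in TGFβR-CA, with 0.0365 against 0.383 and 0.0742. For *Lgals3* the TGFβR-WT sets themselves lay far apart, and TGFβR-KO cells stood at 0.517. Of the 10 other inhibitory receptors and related surface proteins, 1 was lower in TGFβR-KO, *Nt5e*, the adenosine-producing enzyme CD73, at 0.513 against 2.24 and 2.22. The 3 that were higher were *Cd48* (3.69 against 2.26 and 1.88), *Cd160* (0.895 against 0.519 and 0.363) and *Klrg1*, a receptor of effector cells, with 0.199 in TGFβR-KO and no UMI in either TGFβR-WT set. Against the floor of 3 UMIs per set, *Klrg1* was at least 16.7-fold and 8.07-fold higher. The median log2 ratio of this list, with *Klrg1* at those bounds, was 0.35 and 0.42 against the TGFβR-WT sets, over members that lay on both sides of 0.

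Among the 10 costimulatory receptors 3 were lower in TGFβR-KO. *Icos*, which lies 62094 bases from *Ctla4*, stood at 3.67 against 5.63 and 6.96, *Slamf6* at 1.14 against 2.02 and 1.93, and *Cd27* at 0.465 against 1.11 and 1.34. *Cd226*, the activating competitor of TIGIT, was the only 1 that was higher, at 1.45 against 0.590 and 0.495. Of the 19 signaling proteins, *Ptpn11* (0.767 against 1.48 and 2.11) and *Dgkz*, a diacylglycerol kinase (1.08 against 1.62 and 1.90), were lower in TGFβR-KO, and *Cd247*, the CD3 zeta chain, was higher in TGFβR-CA (0.351 against 0.215 and 0.0989). The 20 transcription factors were split, with 5 lower and 5 higher in TGFβR-KO. *Maf* stood at 12.7 against 24.1 and 20.5, *Ikzf2* at 1.29 against 3.65 and 2.88 and *Tox2* at 1.04 against 2.30 and 1.96, and *Tox* and *Tcf7* were the others called lower. *Id2* was higher, at 11.5 against 6.68 and 5.14, and was lower in TGFβR-CA, at 3.04. The others called higher were *Tbx21* and the 3 *Nr4a* genes, named here after their values were seen.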

How the data were processed

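RNA of sorted YFP+CD4+ T cells was measured by 10x 3′ single-cell sequencing. The authors counted UMIs with Cell Ranger 3.1.0 on mm10, kept cells with 1000 to 5000 genes and under 10% mitochondrial UMIs, corrected them with SCTransform in Seurat, integrated and clustered them, and left out γδ T and epithelial cells. Each deposited value is a natural log, taken after 1 was added to the corrected UMI number. Undoing the log gave whole numbers, within 1e-06, for all 7880276 values above 0. They are not raw counts and no count model was fitted. Cluster names and conditions are the authors'. Cell depth before correction is not known from the table. Shares were repeated after thinning the corrected UMIs, which evens the corrected depth only and cannot remove a difference in depth before correction.

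Members and gene lists were chosen with earlier results of these data known. A call needed a ratio of at least 1.5 against both TGFβR-WT sets, more than 3 UMIs in the higher group and, within clusters, at least 10 UMIs there and 20 cells per set. Named genes were the members, the 3 most alike for each member with at least 200 UMIs (log2 of level plus 0.1), and at most 4 called genes per list, those with the most UMIs first. The call rule, without its UMI minimum, was tried on simulated counts that had no spread between pools of mice. That trial does not show how often the rule calls falsely in these data. Positions come from GENCODE on mm10, matched by symbol. Alternatives used another ratio, measure, weighting, minimum or set of cells, among them cells without Scrublet doublets. Python 3.11.15, numpy 2.4.6, scipy 1.17.1, pandas 2.3.3, scanpy 1.11.5 and matplotlib 3.10.9 were used.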

Additional observations from a re-analysis of the deposited data

Results flagged for a closer look

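The ratio of *Ctla4* in TGFβR-KO over TGFβR-WT cells differed in direction between clusters. In the Pre-tumorigenic cluster the TGFβR-KO level was 1.51 times that of TGFβR-WT, with 1.58 and 1.48 against the larger and smaller sets. In the Activated cluster it was 0.532 times (0.475 and 0.779), and in the TR-TFH cluster 0.742 times (0.717 and 0.799). Each direction held against both TGFβR-WT sets, and with 1 TGFβR-KO sample the difference was not tested.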

How the results depend on the processing

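No alternative turned the direction of a called result. *Lag3* was called lower in TGFβR-KO cells under every alternative run. For the members lower in TGFβR-KO, a ratio of 2 or cluster weighting left 1 (*Lag3*), shares of cells left 2 (*Lag3* and *Pdcd1*), and without the smaller TGFβR-WT set the count was 5. For the members higher in TGFβR-CA, shares of cells, a ratio of 2 and cluster weighting gave 0, a looser ratio than 1.5 gave 2, and pooled TGFβR-WT cells or leaving out either set gave 3. Pathway genes lower in TGFβR-KO numbered 6 by shares of cells, 3 at a ratio of 2, 19 at the looser ratio and 3 with cluster weighting, and those higher 16 at the looser ratio and 14 without the larger set. Pathway genes lower in TGFβR-CA numbered 0 by shares of cells or with cluster weighting, 1 at a ratio of 2 or without the Tumorigenic and CTL clusters, 5 at the looser ratio or without the smaller set and 4 without the larger set. Those higher numbered 0 at a ratio of 2, 3 at the looser ratio, with pooled TGFβR-WT cells or without the smaller set, 5 without the larger set and 2 with genes of at least 50 UMIs. Pairs of a member and a cluster lower in TGFβR-KO numbered 2 at a ratio of 2 or by shares of cells (*Lag3* in the GC-TFH cluster was lost), 7 at the looser ratio, 13 with pooled TGFβR-WT cells, 10 without the smaller set and 7 without the larger set. Pairs higher in TGFβR-KO numbered 1 with every cell weighted equally or without the smaller set, 2 at the looser ratio or pooled, and 3 without the larger set. Pairs lower in TGFβR-CA numbered 2 when pooled or without either set. Pairs higher in TGFβR-CA numbered 1 with every cell weighted equally, at a ratio of 2 or without doublets, 5 at the looser ratio or without the larger set, 9 when pooled and 12 without the smaller set. Cells with at least 2 members made up 21.8% of TGFβR-KO cells without the Tumorigenic and CTL clusters and 26.1% with cluster weighting, and 51.3% of TGFβR-WT cells without the larger set. When a member needed at least 2 UMIs, these shares were 4.84%, 15.5% and 27.0% in TGFβR-KO, TGFβR-WT and TGFβR-CA. The causes were not tested. Of the log2 ratios of single members, 14 moved by more than the SD between the TGFβR-WT sets and 112 did not. This SD is wide for members whose TGFβR-WT sets lay apart, so the 112 cannot be read as stable. They include ratios that changed sign, such as *Havcr2* in TGFβR-KO without the smaller set and *Cd200* in TGFβR-KO with cluster weighting. No paired analysis was possible because the TGFβR-KO and the TGFβR-CA condition had a lone sample and the TGFβR-WT cells are not tied to their samples.

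Scrublet called 43 doublets (0.846% of cells), 20 of them among the 298 cells of the smaller TGFβR-WT set. *Havcr2* and *Btla* have too few UMIs to show a difference under 1.5-fold, and the TGFβR-WT sets differ for *Cd200* by more than the conditions do. With 1 pool of mice per condition, the spread between mice is not known.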
